A study of Homo sapiens with 20 samples.

Results

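The genes described here are 37 genes of the unfolded protein response and of the folding machinery of the endoplasmic reticulum (ER), chosen by name from a table of 27864 genes. All 37 were found in the table by their gene identifiers, and all 37 were among the 16323 genes with enough counts to be tested. The study measured mRNA by sequencing in SUM159PT, a human triple-negative breast cancer cell line, in 20 libraries of 7 groups. Wild-type (wt) cells were grown attached to plastic (wt 2D, 3 libraries) or as secondary tumorspheres (wt 3D, 3 libraries). A further wt group (2 libraries) was grown attached in the standard medium to 50% confluency and then in the tumorsphere medium until 80% confluency, and is called wt in 3D medium here. The KOd and KOs groups come from knockout designs against NNMT, the nicotinamide N-methyltransferase gene, and each exists in 2D and in 3D with 3 libraries. KOd cells carry a deletion of NNMT exon 1 made with 2 guide RNAs, and KOs cells were targeted with 1 guide RNA at the NNMT transcription start site. Both are oligoclonal pools mixed from several clones, so each pool stands for a few selected clones. The 2D medium contained serum (5% fetal calf), insulin at 5 µg/ml and hydrocortisone at 1 µg/ml in Ham's F12. The serum-free 3D medium was DMEM/F12 with B27, epidermal growth factor (20 ng/mL) and basic fibroblast growth factor (20 ng/mL), and spheres were grown without attachment for 2 rounds of 6 days. A comparison of 3D with 2D therefore joins loss of attachment, medium, culture time and RNA kit, which cannot be told apart in it. Replicates carry the letters A, B and C with no statement that they were cultured separately. The p-values therefore reflect variation among libraries that may be technical.

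Secreted and membrane proteins enter the ER through a channel in its membrane, fold there with the help of chaperones and disulfide-forming enzymes, and leave in coated vesicles, while misfolded ones are sent back to the cytosol for degradation. Unfolded protein in the ER activates the membrane sensors IRE1 (gene ERN1), PERK (gene EIF2AK3) and ATF6. IRE1 splices the XBP1 mRNA into the form that encodes an active transcription factor, ATF6 is cut from the membrane and enters the nucleus, and PERK slows translation and raises ATF4. Together they raise chaperones, degradation components and export factors, and professional secretory cells and many tumor cells keep parts of the program active. Gene-level counts do not separate spliced from unspliced XBP1 and do not measure sensor activity.

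Library totals ran from 26396964 to 43744817 counts, with the 6 libraries labelled KOs the deepest. Their share of ribosomal RNA counts was 0.696% to 2.38%, against 2.56% to 8.32% elsewhere. In each of 3 groups 1 library stood apart from its replicates (replicate A of labelled KOs 2D, and replicate C both of KOd 3D and of wt 3D), and counts of calls are also given without these 3 libraries. They were picked after their distance from their replicates was seen, so calls gained without them are not independent support. All groups share 1 fit, so leaving them out also changed calls in comparisons that hold none of them. No replicate pair agreed within sampling noise. NNMT lay at 102 to 128 CPM in wt 2D and at 4.39 to 5.64 CPM in the 6 KOd libraries (CPM, counts scaled to a common library size by the trimmed-mean method, TMM). In the libraries labelled KOs it lay at 76.0 to 130.1 CPM, so NNMT mRNA was not depleted there as it was in KOd, and these are called "labelled KOs" throughout. Vimentin (VIM), a mesenchymal marker, lay between 2537 and 5967 CPM in all 20 libraries. The sum of 5 mesenchymal markers was 14255 to 15315 CPM in wt 2D, 6582 to 7144 in wt in 3D medium, 41337 to 45414 in wt 3D, 8227 to 8693 in KOd 2D, 33546 to 42235 in KOd 3D, 8556 to 11789 in labelled KOs 2D and 20635 to 21549 in labelled KOs 3D. Of 7 luminal markers, ESR1, PGR and EPCAM did not exceed 0.426 CPM (PGR at 0 in 17 libraries), GATA3 lay at 1.30 to 14.4, ERBB2 at 54.2 to 99.0, KRT18 at 147 to 476 and KRT8 at 202 to 1119. Their sum was 1421 to 1661 CPM in labelled KOs 2D, 658 to 818 in wt 2D, 642 to 673 in KOd 2D and 459 to 579 in the other 4 groups. Of 6 leukocyte markers, CD3E was at 0 in 17 libraries and PTPRC did not exceed 2.45 CPM, and CD68 (15.7 to 194 CPM) made up most of the sum. It was 24.2 to 31.9 CPM in wt 2D, 98.2 to 110.5 in wt in 3D medium, 18.2 to 21.2 in wt 3D, 42.1 to 50.3 in KOd 2D, 34.1 to 38.6 in KOd 3D, 63.1 to 105 in labelled KOs 2D and 189 to 201 in labelled KOs 3D. Of 4 endothelial markers, CDH5 was at 0 in 13 libraries and VWF did not exceed 1.79 CPM, with PECAM1 at 1.84 to 97.1 and KDR at 0 to 29.1. Their sum was 7.45 to 10.8 CPM in wt 2D, 10.1 to 10.3 in wt in 3D medium, 50.6 to 73.3 in wt 3D, 6.69 to 8.37 in KOd 2D, 90.2 to 97.4 in KOd 3D, 8.32 to 41.8 in labelled KOs 2D and 31.1 to 36.2 in labelled KOs 3D. The plasma cell markers JCHAIN, MZB1 and IRF4 were at 0 in 12 to 15 libraries. The summed level of 5 plasma cell markers, nearly all of it SDC1, which epithelial cells also express, was 63.4 to 80.2 CPM in wt 2D, 52.8 to 53.8 in wt in 3D medium, 119 to 148 in wt 3D, 54.3 to 67.9 in KOd 2D, 200.3 to 279 in KOd 3D and 179 to 200.1 in labelled KOs. All 5 sums thus differed between cultures or pools, and their part in the results was not tested. A bulk value cannot tell fewer cells of a kind from less RNA per cell.

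Promoter sequence from the RefSeq table for build GRCh38.p14 was matched by symbol for 35 of the 37 genes (PDIA3 and SEC24D had no match), and the 250 bases before each annotated start were searched on both strands. The ER stress response element, spelled CCAAT, then 9 bases of any kind, then CCACG, was present in 7 members (20% of 35) and in 26 of all 35116 promoters (0.074%). Its relative ERSE-II, spelled ATTGG, then 1 base of any kind, then CCACG, was present in SDF2L1 and HERPUD1 (5.71% of 35) and in 0.0513% of all promoters. The XBP1 site core TGACGTG was present in DNAJC10 alone (2.86%) against 1.68% of all promoters. The members were chosen as genes of this response and the elements are named for it, so the higher shares are not independent support. Each member was counted through the first promoter listed for its symbol, while the other share counted every promoter entry. The 7 members with the first element were XBP1, HSPA5, HSP90B1, CALR, CANX, ERO1B and CRELD2, and no ERSE match overlapped an ERSE-II match in the same promoter. The 5 promoters below are shown because their genes moved in opposite directions in the comparisons that follow while all carry such an element. Capitals mark the fixed letters of the element, on either strand.
XBP1: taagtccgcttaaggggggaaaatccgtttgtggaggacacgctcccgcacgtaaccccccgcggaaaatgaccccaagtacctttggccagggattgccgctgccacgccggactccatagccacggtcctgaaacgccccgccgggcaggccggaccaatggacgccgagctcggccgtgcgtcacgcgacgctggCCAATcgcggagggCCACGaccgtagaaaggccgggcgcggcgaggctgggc
HSPA5: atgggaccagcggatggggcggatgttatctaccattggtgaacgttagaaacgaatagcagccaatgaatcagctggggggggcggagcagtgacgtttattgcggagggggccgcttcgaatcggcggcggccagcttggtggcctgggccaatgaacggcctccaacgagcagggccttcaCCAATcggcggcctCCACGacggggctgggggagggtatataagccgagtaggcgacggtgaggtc
HERPUD1: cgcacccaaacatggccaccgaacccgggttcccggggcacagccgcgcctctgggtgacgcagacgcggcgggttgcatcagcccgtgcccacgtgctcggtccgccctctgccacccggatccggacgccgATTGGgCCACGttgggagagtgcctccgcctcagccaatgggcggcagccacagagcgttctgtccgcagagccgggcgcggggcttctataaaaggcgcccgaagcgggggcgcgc
HSP90B1: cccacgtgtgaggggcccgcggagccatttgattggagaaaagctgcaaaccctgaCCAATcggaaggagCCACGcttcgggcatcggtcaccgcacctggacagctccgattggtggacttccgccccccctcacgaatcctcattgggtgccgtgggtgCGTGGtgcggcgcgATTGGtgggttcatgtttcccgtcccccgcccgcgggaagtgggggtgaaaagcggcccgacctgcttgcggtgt
CALR: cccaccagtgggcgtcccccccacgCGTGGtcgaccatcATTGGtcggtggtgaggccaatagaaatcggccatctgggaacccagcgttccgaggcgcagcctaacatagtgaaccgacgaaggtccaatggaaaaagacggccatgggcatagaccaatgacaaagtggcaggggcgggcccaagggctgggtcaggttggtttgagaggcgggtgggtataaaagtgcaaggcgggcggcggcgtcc
XBP1 (chr22:28800570-28800819, minus strand), HSPA5 (chr9:125241344-125241593, minus strand), HERPUD1 (chr16:56931892-56932141, plus strand), HSP90B1 (chr12:103930160-103930409, plus strand) and CALR (chr19:12938359-12938608, plus strand) are given 5′ to 3′, ending at the base before the start. The element began 52 bases before the start in XBP1, 66 in HSPA5, 117 (ERSE-II) in HERPUD1, 225 (reverse strand) in CALR, and 194 and 89 (the second on the reverse strand) in HSP90B1. A match describes letters, not binding.

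The level of the members per gene length in wt 2D spanned a wide range. CALR (calreticulin, a lectin chaperone for glycoproteins) was highest at 547 ± 8.66 RPKM (CPM per kilobase of exon, SD, n = 3), followed by HSP90B1 (the luminal HSP90) at 457 ± 14.0 and P4HB (protein disulfide isomerase) at 396 ± 19.2. CANX (calnexin, the membrane-bound lectin chaperone) at 280 ± 9.33 and HSPA5 (BiP, the luminal HSP70 that binds unfolded chains and holds the sensors inactive) at 185 ± 32.2 came next. HSPA5, PDIA6 (183 ± 12.9) and PDIA3 (178 ± 6.87) did not differ beyond their spread. The lowest were EIF2AK3 at 5.76 ± 0.590, DNAJB9 at 4.91 ± 0.541, ERN1 at 1.41 ± 0.133 and ERO1B at 0.925 ± 0.141, so the sensors were among the least abundant members. Across the 7 groups the ratio of the highest to the lowest group mean (in CPM) was 8.24 for ERN1, 5.48 for HERPUD1, 4.39 for DNAJB9, 4.28 for CREB3L1 and 3.90 for XBP1. It was smallest for EIF2AK3 (1.32) and CANX (1.33). KOd 2D held the highest mean for 10 members, labelled KOs 2D for 9 and wt 2D for 8. KOd 3D held the lowest for 15 and labelled KOs 2D for 6. How often each group was highest or lowest over all tested genes was not counted.

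**Figure D1:**
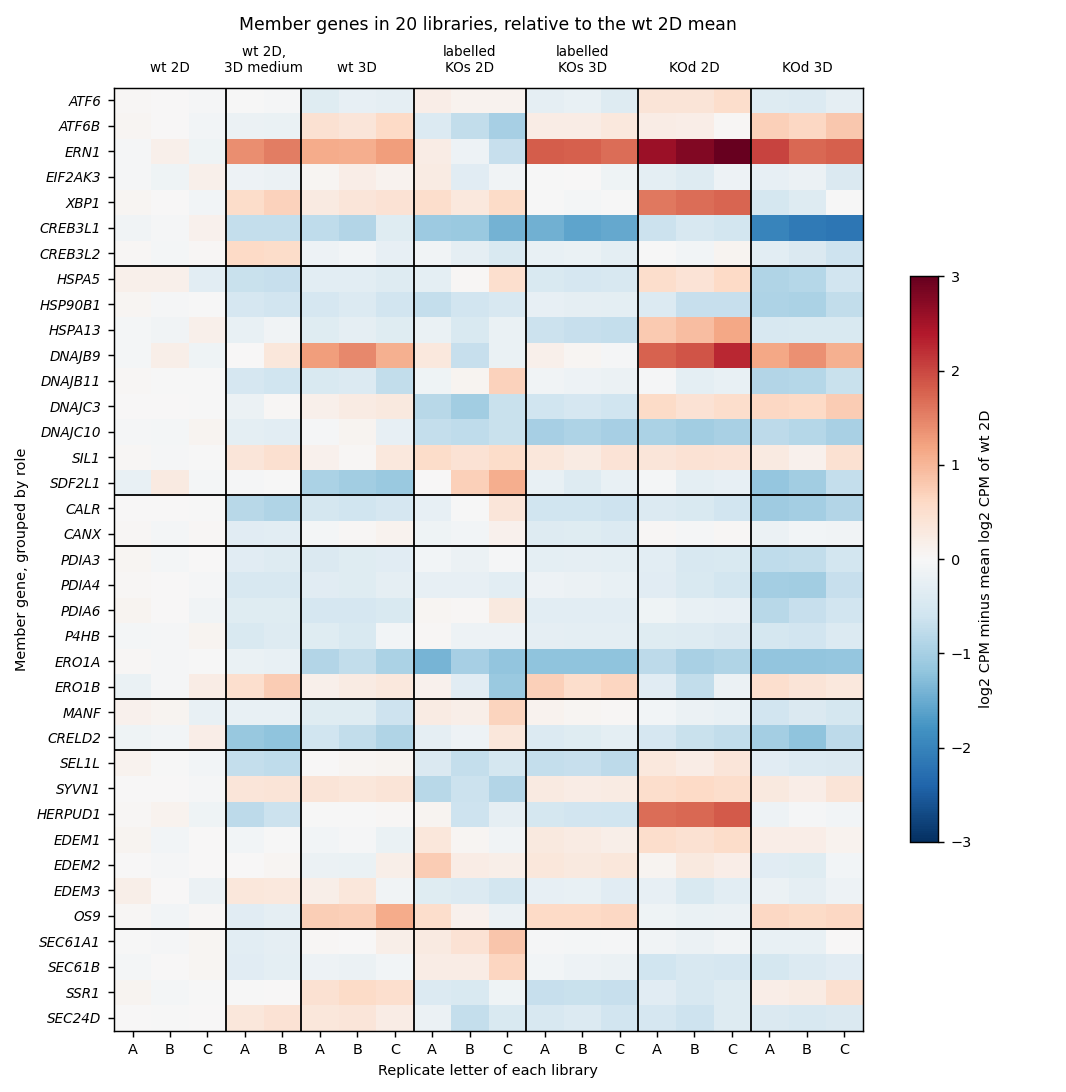
Each cell is the log2 CPM of 1 member gene (rows, grouped by role with black lines) in 1 library (columns, grouped by the 7 groups) minus the mean log2 CPM of the 3 wt 2D libraries, from blue (lower) to red (higher). ERN1, XBP1, DNAJB9, HSPA13 and HERPUD1 are red in all 3 KOd 2D libraries, and CREB3L1 is blue in every group other than wt 2D.

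In attached culture, the KOd pool had higher mRNA of the IRE1 sensor, XBP1, several co-chaperones and 4 of 7 degradation members than wt, and lower mRNA of several abundant folding proteins. Of 37 members, 12 rose and 13 fell (edgeR quasi-likelihood test, Benjamini-Hochberg adjusted p under 0.05 over 16323 genes), where 22.1% of all tested genes rose and 22.5% fell. Without the 3 libraries that stood apart, 13 rose and 16 fell, where 29.9% and 29.8% of all tested genes did. The median log2 fold change of the members was -0.17, against 0.01 over all tested genes. By role, 3 of 7 sensors and transcription factors, 5 of 9 HSP70 and HSP90 chaperones and partners and 4 of 7 degradation genes rose. None of 6 disulfide-forming enzymes rose and 4 fell, and none of 4 translocon and export genes rose and 3 fell.

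ERN1, which encodes the kinase and RNase IRE1, was measured at 5.53, 6.22 and 5.18 CPM in the wt 2D libraries and at 33.6, 39.1 and 51.6 CPM in KOd 2D. The lowest KOd library lay far above the highest wt library, a log2 difference of 2.88 ± 0.19 (SE), or 7.34-fold (adjusted p = 3.1e-09). XBP1, the transcription factor whose mRNA IRE1 splices, was at 114, 110.1 and 104 CPM in wt 2D and 327, 352 and 365 CPM in KOd 2D. It rose by 1.67 ± 0.11 log2 (3.18-fold, adjusted p = 3e-09), with no overlap between the groups. ATF6, the membrane-bound factor cut in the Golgi, rose by 0.43 ± 0.07, from 101, 99.4 and 96.9 CPM to 129, 129 and 142 CPM. The PERK gene EIF2AK3 (-0.27 ± 0.12), the ATF6 relative ATF6B (0.16 ± 0.11) and CREB3L2 (-0.01 ± 0.09), a membrane-bound factor of secretory cells, did not pass the test, though EIF2AK3 was called without the 3 libraries that stood apart (-0.27). CREB3L1, a factor of the same family, fell by 0.56 ± 0.12.

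Among the HSP70 system, DNAJB9, a BiP co-chaperone that restrains IRE1, was at 11.9, 14.0 and 11.4 CPM in wt 2D and 42.4, 45.7 and 60.1 CPM in KOd 2D. This was a rise of 1.99 ± 0.20 log2 (adjusted p = 4e-07), and every KOd library exceeded every wt library. HSPA13, an HSP70 relative of microsomes, was at 80.2, 77.4 and 92.0 CPM and 144, 158 and 184 CPM, a rise of 0.96 ± 0.09. HSPA5 was at 811, 806 and 587 CPM in wt 2D, replicate C being the low one, and at 1046, 960.5 and 1095 CPM in KOd 2D. It rose by 0.49 ± 0.15 (adjusted p = 0.014), a call that was lost without wt 2D replicate C (0.35) or KOd 2D replicate C (0.45). DNAJC3, a co-chaperone that also restrains PERK, rose by 0.52 ± 0.09, and SIL1, the nucleotide exchange factor of BiP, by 0.40 ± 0.09. HSP90B1 went the other way, from 1350.5, 1272 and 1300.5 CPM to 984, 804 and 811 CPM, a change of -0.59 ± 0.09, again without overlap. The co-chaperone and disulfide reductase DNAJC10 fell most of all members, by 0.99 ± 0.08 from 195, 191 and 209 CPM to 103, 95.9 and 101 CPM. DNAJB11 (-0.18 ± 0.15) and SDF2L1 (-0.21 ± 0.20), which act together with BiP on unfolded chains, did not pass.

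In ER-associated degradation, HERPUD1, a membrane scaffold of the degradation complex, was at 94.0, 98.1 and 84.2 CPM in wt 2D and 293, 303 and 327 CPM in KOd 2D. The rise of 1.74 ± 0.12 log2 was 3.34-fold (adjusted p = 5.3e-09), and no library of another group came near the KOd 2D values. The ubiquitin ligase gene SYVN1 rose by 0.55 ± 0.07, the mannosidase-like EDEM1 by 0.51 ± 0.09 and SEL1L, the adaptor of the ligase, by 0.31 ± 0.08. EDEM3 fell by 0.34 ± 0.10, a call lost without wt 2D replicate A (-0.25) or KOd 2D replicate B (-0.28), and EDEM2 (0.19 ± 0.13) and the lectin OS9 (-0.17 ± 0.13) did not pass, though both were called without the 3 libraries that stood apart (0.19 and -0.16).

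Of the enzymes that form and shuffle disulfides, 4 of 6 fell in the same libraries. ERO1A, the oxidase that recharges disulfide isomerases, was at 146, 140.0 and 142 CPM in wt 2D and 82.5, 72.6 and 76.2 CPM in KOd 2D, a change of -0.89 ± 0.09 (adjusted p = 2.3e-07) with no overlap. The isomerases PDIA4 (-0.44 ± 0.09), PDIA3 (-0.41 ± 0.07) and P4HB (-0.40 ± 0.09) fell, and PDIA6 (-0.21 ± 0.08, called at -0.20 without the 3 libraries that stood apart) and the second oxidase ERO1B (-0.42 ± 0.23) did not pass. Calreticulin (CALR) fell by 0.49 ± 0.11, from 1062, 1046 and 1028 CPM to 781, 759.6 and 697 CPM, while CANX (0.01 ± 0.08) did not pass. Of the secreted stress response factors, CRELD2 fell by 0.64 ± 0.15 and MANF (-0.17 ± 0.12) did not pass. The channel subunit SEC61B (-0.53 ± 0.10), the translocon-associated SSR1 (-0.40 ± 0.09) and the COPII coat subunit SEC24D (-0.49 ± 0.10) fell, and SEC61A1 (-0.13 ± 0.11), the channel itself, did not pass.

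**Figure D2:**
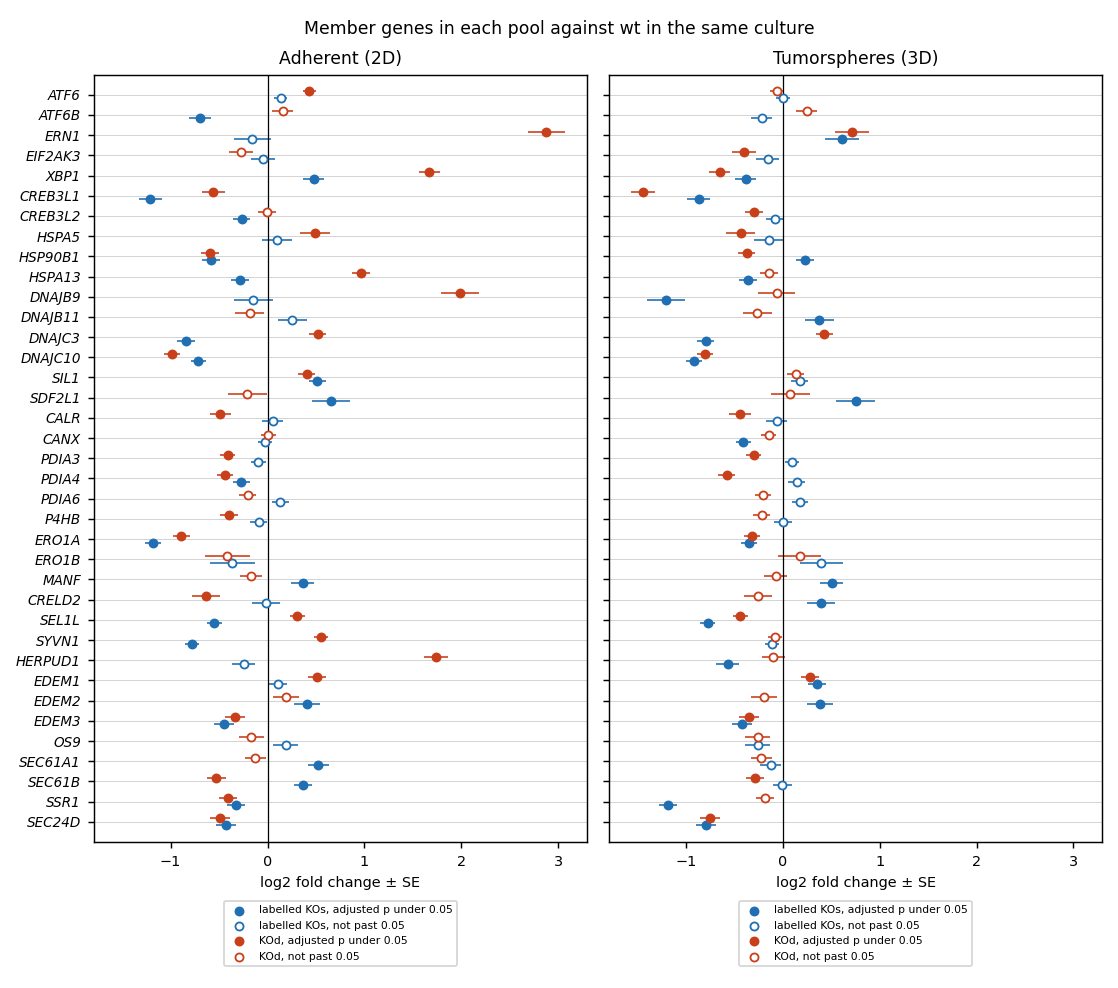
Points are log2 fold changes of the 37 members (rows) in each pool against wt in the same culture, with bars of 1 SE; blue is labelled KOs, orange-red is KOd, filled points have an adjusted p under 0.05. In 2D the KOd points for ERN1 (2.88), DNAJB9 (1.99), HERPUD1 (1.74) and XBP1 (1.67) lie far to the right, and in 3D those of DNAJB9 (-0.06), HERPUD1 (-0.10) and XBP1 (-0.65) do not.

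The PERK arm was examined through 9 listed genes, called the PERK arm genes here. They include EIF2S1, the gene of a PERK substrate, so not all lie downstream of that sensor. Their mRNA levels do not measure PERK activity, and whether PERK underlay any change in them was not tested. In KOd 2D, 7 of the 9 were higher than in wt 2D and none was lower, where 22.1% and 22.5% of all tested genes were. The median log2 difference of the 9 was 2.52. TRIB3, a pseudokinase induced through ATF4 and CHOP, was at 50.2, 55.4 and 53.2 CPM in wt 2D and 586, 704 and 842 CPM in KOd 2D, a rise of 3.75 ± 0.13 (adjusted p = 1.3e-12). CHAC1, a glutathione-degrading enzyme of the same route, was at 2.05, 2.42 and 2.71 CPM and 55.5, 65.6 and 60.8 CPM, a rise of 4.66 ± 0.29. DDIT3, which encodes CHOP, rose by 3.49 ± 0.23, and was named after its values were seen, like PPP1R15A (2.52 ± 0.18) and ATF3 (3.27 ± 0.23). No KOd 2D library overlapped wt 2D for TRIB3 or CHAC1. The median log2 difference of the same 9 genes from wt was -0.07 in KOd 3D, with 1 called higher (ATF3, 1.10 ± 0.23) and 2 lower (ATF4, -0.54 ± 0.09, and PPP1R15B, -0.30 ± 0.11, the latter named after its values were seen). Among all tested genes 16.5% were higher and 17.5% lower there. In wt 3D against wt 2D, 3 of the 9 rose and 2 fell, among them TRIB3 (0.43 ± 0.11) and EIF2S1, which encodes the eIF2 subunit that PERK phosphorylates (-0.73 ± 0.13). These counts lie near the shares of all tested genes, 33.3% and 30.4%. Against wt in 3D medium, wt 3D had 1 of the 9 higher and 5 lower, with CHAC1 at -2.24 ± 0.32 and the transcription factor CEBPB at -0.89 ± 0.13. The shares of all tested genes there were 32.8% and 30.0%. In labelled KOs 3D against 2D, 3 rose and 4 fell, where 32.9% and 32.1% of all tested genes did, with CEBPB at 0.82 ± 0.12 and CHAC1 at -2.63 ± 0.29.

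When KOd cells were grown as tumorspheres, most members fell. Of 37, 4 rose and 23 fell against KOd 2D (35.2% and 31.2% of all tested genes), with a member median of -0.34 against 0.07 over all genes. Without the 3 libraries that stood apart 5 rose and 25 fell (38.7% and 35.6% of all tested genes). This comparison shares the KOd 2D libraries with the one above, so the values of both are given side by side and are not independent. XBP1 was at 76.1, 83.4 and 108 CPM in KOd 3D, replicates A and B lying below every wt 2D library and replicate C within their range, and changed by -1.96 ± 0.11 from KOd 2D (adjusted p = 1e-10). HERPUD1 was at 83.3, 89.8 and 86.3 CPM in KOd 3D and changed by -1.83 ± 0.12 from KOd 2D. ERN1 fell by 1.01 ± 0.17, to 23.2, 18.9 and 19.8 CPM, which still lay above every wt library. HSPA13 fell by 1.44 ± 0.10 and DNAJB9 changed by -0.79 ± 0.19. HSPA5 was at 389, 403 and 484 CPM in KOd 3D, a change of -1.28 ± 0.16 with no overlap between the KOd groups. CREB3L1 was at 74.7, 84.4 and 80.4 CPM in KOd 2D and 29.6, 26.8 and 26.1 CPM in KOd 3D, a change of -1.54 ± 0.12.

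In the same comparison ATF6 (-0.79 ± 0.07), SDF2L1 (-0.77 ± 0.20), SEL1L (-0.70 ± 0.08), DNAJB11 (-0.61 ± 0.15), CALR (-0.49 ± 0.11), PDIA6 (-0.49 ± 0.08) and PDIA4 (-0.47 ± 0.09) also fell. CREB3L2, EDEM2, EDEM1, MANF, CRELD2, ERO1A, HSP90B1, PDIA3 and SYVN1 fell less, with log2 changes from -0.45 to -0.26. The calls of CRELD2, HSP90B1 and MANF depended on single libraries: each was lost without KOd 2D replicate A (-0.30, -0.17 and -0.30) and without KOd 3D replicate A (-0.36, -0.24 and -0.32). Those of CRELD2 and HSP90B1 were also lost without KOd 3D replicate B (-0.27 and -0.23), and that of CRELD2 without KOd 2D replicate B (-0.39). The 4 members that rose were ERO1B (0.82 ± 0.23), OS9 (0.77 ± 0.13), SSR1 (0.72 ± 0.09) and ATF6B (0.56 ± 0.11). None of the 9 PERK arm genes rose and 8 fell, where 35.2% and 31.2% of all tested genes did. Their median was -2.35, and CHAC1 was at 1.07, 1.12 and 1.37 CPM in KOd 3D.

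Whether the response to tumorsphere culture differed between KOd and wt was tested with an interaction contrast, (KOd 3D minus KOd 2D) minus (wt 3D minus wt 2D). This contrast equals the KOd difference from wt in 3D minus that in 2D and reuses the same libraries. It is therefore not independent of the differences given for KOd 2D above. It was positive for 1 member and negative for 10, against 14.4% and 14.7% of all tested genes. Without the 3 libraries that stood apart it was called positive for 2 and negative for 16, against 20.7% and 21.3% of all tested genes. The differences were -2.32 ± 0.15 log2 for XBP1 (adjusted p = 2.2e-08), -2.16 ± 0.26 for ERN1, -2.05 ± 0.27 for DNAJB9 and -1.84 ± 0.17 for HERPUD1. ERN1, DNAJB9 and XBP1 rose from 2D to 3D in wt, by 1.16, 1.26 and 0.36, where they fell in KOd. HERPUD1 did not pass the test in wt (0.01 ± 0.12), its wt 3D libraries lying at 91.4, 91.7 and 94.6 CPM. ERO1A was the member with a positive difference (0.57 ± 0.12): it fell by 0.86 in wt and changed by -0.28 in KOd. No member's call in this contrast was lost on leaving out any 1 of the 12 libraries. Of the PERK arm genes, 7 of 9 had a negative difference and none a positive one (TRIB3 -3.50 ± 0.16, CHAC1 -4.76 ± 0.44).

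**Figure D3:**
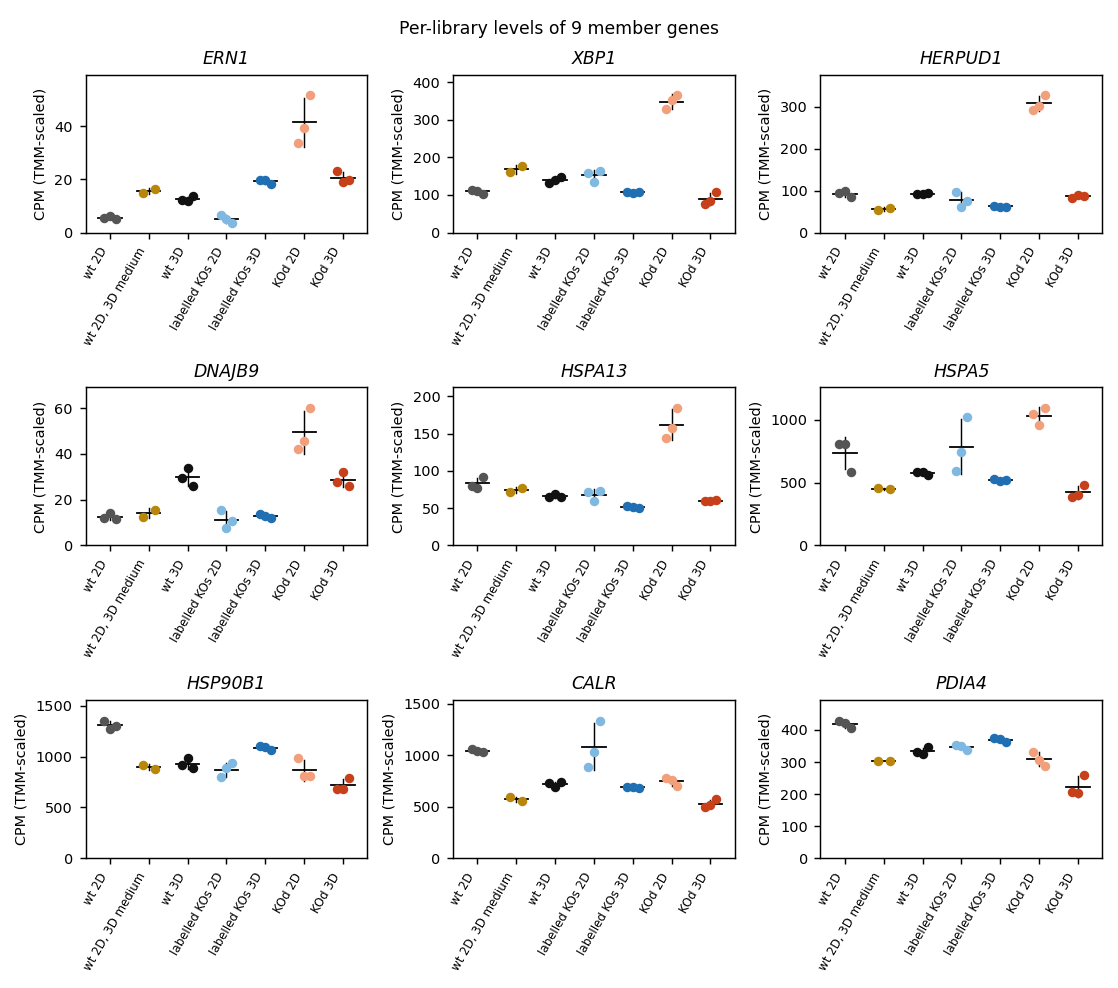
Dots are the TMM-scaled CPM of 9 members in each of the 20 libraries (7 groups on the horizontal axis), the horizontal bar is the group mean and the vertical line 1 SD; all vertical axes start at 0. For HERPUD1 the 3 KOd 2D libraries, at 293 to 327 CPM, stand above all other libraries, which do not exceed 98.1 CPM.

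Wild-type cells changed members in both directions when grown as tumorspheres. Of 37, 9 rose and 14 fell against wt 2D, where 33.3% of all tested genes rose and 30.4% fell, and the member median was -0.06 against 0.04 over all genes. The members' own shares were 24.3% and 37.8%, near that background. Among the sensors, ERN1 was at 12.2, 12.0 and 13.6 CPM in wt 3D against 5.53, 6.22 and 5.18 CPM in wt 2D, a rise of 1.16 ± 0.19 without overlap (adjusted p = 3.7e-05). ATF6B (0.47 ± 0.11) and XBP1 (0.36 ± 0.11) rose and ATF6 (-0.29 ± 0.07) and CREB3L1 (-0.65 ± 0.12) fell. DNAJB9 was at 29.6, 34.0 and 26.0 CPM in wt 3D, more than in any wt 2D library, and rose by 1.26 ± 0.20. SDF2L1 was at 17.8, 25.2 and 20.1 CPM in wt 2D and 10.7, 10.1 and 9.55 CPM in wt 3D, a change of -1.05 ± 0.20 without overlap.

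Of the 6 disulfide enzymes, 5 fell in wt tumorspheres and none rose. ERO1A was at 77.7, 85.0 and 74.2 CPM in wt 3D, below every wt 2D library, a change of -0.86 ± 0.08 (adjusted p = 1.3e-07). PDIA6 (-0.49 ± 0.08), PDIA3 (-0.38 ± 0.07), PDIA4 (-0.33 ± 0.09) and P4HB (-0.29 ± 0.09, lost without wt 3D replicate B at -0.21) fell as well. The chaperones CALR (-0.54 ± 0.11), DNAJB11 (-0.53 ± 0.15), HSP90B1 (-0.49 ± 0.09) and HSPA13 (-0.33 ± 0.09) and the secreted factors CRELD2 (-0.75 ± 0.15) and MANF (-0.45 ± 0.12) fell, and HSPA5 (-0.35 ± 0.15, adjusted p = 0.053) did not pass, though it was called without the 3 libraries that stood apart (-0.33, adjusted p = 0.019 in edgeR). OS9, a lectin that hands glycoproteins to the degradation complex, was at 164, 151 and 163 CPM in wt 2D and 266, 259.6 and 346 CPM in wt 3D, replicate C being the highest, a rise of 0.86 ± 0.13. SSR1 (0.51 ± 0.09), SYVN1 (0.37 ± 0.07) and SEC24D (0.31 ± 0.10) rose too. The small rise of DNAJC3 (0.23 ± 0.09) was lost without wt 2D replicate A, B or C or wt 3D replicate B or C (0.20 to 0.24). Without the 3 libraries that stood apart 9 members rose and 16 fell, where 36.1% and 34.4% of all tested genes did.

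**Figure D4:**
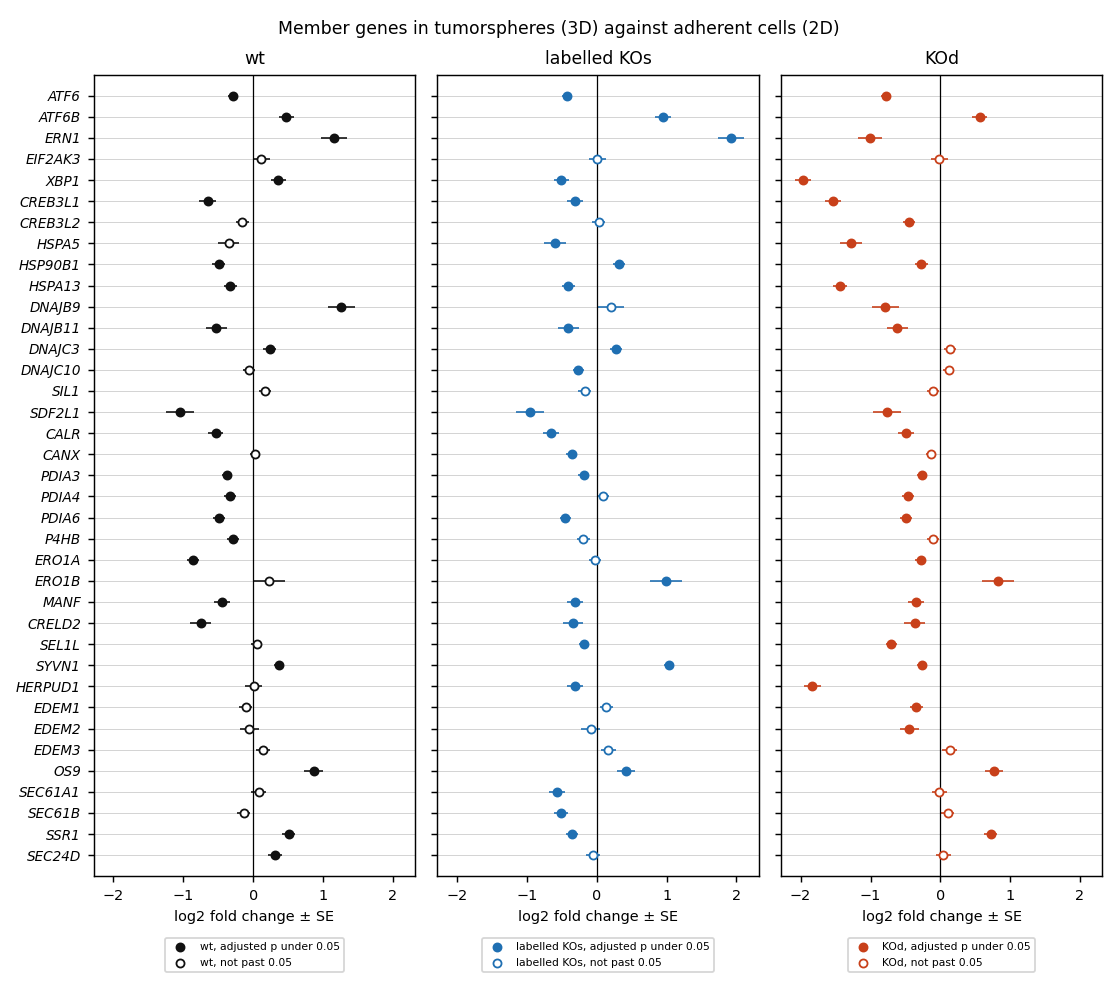
Points are log2 fold changes of the 37 members (rows) in 3D against 2D within wt (black), labelled KOs (blue) and KOd (orange-red), with bars of 1 SE, and filled points have an adjusted p under 0.05. SDF2L1 lies left of 0 in all 3 panels (-1.05, -0.96 and -0.77), while ERN1 lies right of 0 in wt (1.16) and labelled KOs (1.93) and left of it in KOd (-1.01).

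Attached wt cells moved to the 3D medium separate part of this change from loss of attachment, with 2 libraries only. Against wt 2D, 7 members rose and 15 fell, where 15.6% and 16.4% of all tested genes did. The member median was -0.21 against 0.00 over all genes. ERN1 was at 14.9 and 16.3 CPM in wt in 3D medium, above every wt 2D library, a rise of 1.47 ± 0.20 (adjusted p = 3.2e-05). XBP1 was at 160.4 and 177 CPM, a rise of 0.63 ± 0.12, and CREB3L2 at 284 and 275 CPM against 193, 182 and 192 CPM in wt 2D, a rise of 0.56 ± 0.10. SYVN1 rose by 0.38 ± 0.08. CALR was at 592 and 557 CPM in wt in 3D medium, 1.82-fold below wt 2D (-0.86 ± 0.12 log2), and CRELD2 at 21.8 and 20.7 CPM against 44.2, 45.5 and 55.4 CPM, a change of -1.19 ± 0.17. SEL1L (-0.74 ± 0.09), CREB3L1 (-0.72 ± 0.13), HERPUD1 (-0.71 ± 0.14), HSP90B1 (-0.54 ± 0.10), PDIA4 (-0.47 ± 0.10) and PDIA3 (-0.37 ± 0.08) fell. A further 10 calls were each lost on leaving out at least 1 library: HSPA5, DNAJB11, P4HB, PDIA6, SEC61B, CANX and DNAJC10 (-0.70 to -0.31) and SIL1, SEC24D and EDEM3 (0.32 to 0.42). Without replicate A of the 3D-medium group 14 members were called, without its replicate B 13, and the group had 8 higher and 18 lower without the 3 libraries that stood apart. Without those 3 libraries the shares of all tested genes were 24.5% and 24.8%. None of the 3 belongs to wt 2D or to wt in 3D medium, so they enter this comparison only through the shared fit. Of the 9 PERK arm genes, 5 rose and none fell, TRIB3 by 0.96 ± 0.13 and CEBPB, a transcription factor that partners CHOP, by 1.24 ± 0.13.

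Tumorspheres against attached cells in the same medium (wt 3D against wt in 3D medium) had 12 members higher and 5 lower, where 32.8% and 30.0% of all tested genes were. This comparison still joins loss of attachment, time in that medium and possibly RNA kit, which cannot be told apart in it. The member median was 0.05 and that of all genes 0.05. OS9 (1.16 ± 0.15), DNAJB9 (1.09 ± 0.22), SEL1L (0.79 ± 0.09), HERPUD1 (0.72 ± 0.14), ATF6B (0.66 ± 0.13), SSR1 (0.51 ± 0.11) and CANX (0.35 ± 0.09) were higher in spheres. SDF2L1 (-1.02 ± 0.22), CREB3L2 (-0.72 ± 0.10), ERO1A (-0.65 ± 0.09) and ATF6 (-0.27 ± 0.08) were lower. ERN1 (-0.31 ± 0.20) and HSP90B1 (0.05 ± 0.10) did not pass here. The calls of CRELD2, SEC61A1, CALR, DNAJC3 and DNAJC10 (0.25 to 0.43) and of SIL1 (-0.26) were each lost without at least 1 library. Without the 3 libraries that stood apart 14 members were higher and 7 lower, where 36.4% and 34.3% of all tested genes were.

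In attached culture, the labelled KOs pool had 7 members higher and 14 lower than wt, where 27.7% and 25.5% of all tested genes were. Without the 3 libraries that stood apart it had 8 and 18, where 31.8% and 31.9% of all tested genes were. With only the compared groups fitted it had 3 and 12, with fewer samples behind the spread. SDF2L1, MANF, EDEM2, SEC61B, CREB3L2 and HSPA13 lost their calls in that fit. The shares of all tested genes were not counted for it. The member median was -0.09 against 0.06 over all genes. These comparisons and those of KOd share the wt libraries. ERO1A was at 54.3, 71.6 and 62.9 CPM in labelled KOs 2D, below every wt 2D library, a difference of -1.18 ± 0.09 (adjusted p = 5.8e-09). CREB3L1 was at 55.1, 53.9 and 43.8 CPM against 109.7, 115 and 129 CPM, a difference of -1.21 ± 0.12 without overlap. SYVN1 was at 24.7, 28.2 and 23.7 CPM against 44.4, 44.5 and 42.5 CPM, a difference of -0.78 ± 0.07, against 0.55 for KOd. DNAJC3 (-0.84 ± 0.09) and SEL1L (-0.55 ± 0.08) were lower too, against 0.52 and 0.31 for KOd. DNAJC10 (-0.71 ± 0.08), ATF6B (-0.70 ± 0.11), HSP90B1 (-0.58 ± 0.09), EDEM3 (-0.45 ± 0.10), SEC24D (-0.43 ± 0.10), SSR1 (-0.33 ± 0.09) and PDIA4 (-0.27 ± 0.09) were lower.

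SIL1 (0.52 ± 0.09), SEC61A1 (0.52 ± 0.11), XBP1 (0.48 ± 0.11) and SEC61B (0.37 ± 0.09, 0.22 without labelled KOs 2D replicate C) were higher in labelled KOs 2D. ERN1 (-0.16 ± 0.19), DNAJB9 (-0.14 ± 0.20), HERPUD1 (-0.25 ± 0.12) and HSPA5 (0.10 ± 0.15) did not pass. Without the 3 libraries that stood apart, HERPUD1 (-0.44, adjusted p = 0.00022 in edgeR) and DNAJB9 (-0.44, adjusted p = 0.025) were called lower. HSPA5 was at 596, 742 and 1026 CPM in the 3 libraries labelled KOs 2D, replicate C lying above and the others within the range of wt 2D. SDF2L1 was called higher (0.66 ± 0.20) with overlapping groups (21.0, 34.0 and 44.5 CPM), and the call was lost without labelled KOs 2D replicate C (0.39). EDEM2 (0.41) lost its call without labelled KOs 2D replicate A (0.20), MANF (0.36) without labelled KOs 2D replicate C (0.19) or wt 2D replicate C (0.26), and HSPA13 (-0.28) without labelled KOs 2D replicate B or wt 2D replicate C (-0.20 in both). CREB3L2 (-0.27) lost it without labelled KOs 2D replicate C (-0.18), wt 2D replicate A (-0.25) or wt 2D replicate C (-0.26). Of the PERK arm genes, 7 of 9 were higher than in wt 2D and 1 lower, where 27.7% and 25.5% of all tested genes were. Their median was 0.59 (TRIB3 1.14 ± 0.11, CHAC1 1.64 ± 0.28).

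When the labelled KOs pool was grown as tumorspheres, 7 members rose and 19 fell, where 32.9% and 32.1% of all tested genes did. With library totals alone in place of trimmed-mean scaling, 10 rose and 8 fell, against 41.4% and 21.8% of all tested genes. Without the 3 libraries that stood apart 10 rose and 17 fell, against 40.2% and 35.6%. The member median was -0.19 against 0.02 over all genes. ERN1 was at 6.62, 5.02 and 3.46 CPM in labelled KOs 2D and 19.8, 19.7 and 18.1 CPM in labelled KOs 3D, a rise of 1.93 ± 0.19 without overlap (adjusted p = 1.1e-07). SYVN1 was at 53.0, 51.5 and 52.2 CPM in 3D, a rise of 1.03 ± 0.07 (adjusted p = 2.7e-09). ERO1B (0.99 ± 0.22), ATF6B (0.95 ± 0.11), HSP90B1 (0.32 ± 0.09) and DNAJC3 (0.28 ± 0.09, lost without labelled KOs 2D replicate B at 0.19) rose. SDF2L1 (-0.96 ± 0.20), CALR (-0.65 ± 0.11), SEC61A1 (-0.57 ± 0.11), SEC61B (-0.51 ± 0.09), XBP1 (-0.51 ± 0.11), PDIA6 (-0.45 ± 0.08), ATF6 (-0.43 ± 0.07) and HSPA13 (-0.41 ± 0.09) fell. CANX (-0.36 ± 0.08), SSR1 (-0.35 ± 0.09) and DNAJC10 (-0.26 ± 0.08) fell too. With library totals alone HSPA13 (-0.19), CANX (-0.14), SSR1 (-0.13) and DNAJC10 (-0.04) were not called. HSPA5 fell by 0.60 ± 0.15, and its change was -0.36 without labelled KOs 2D replicate C.

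The remaining calls in labelled KOs 3D against 2D were small and each was lost on leaving out at least 1 of the 6 libraries. They were OS9 (0.42) on the higher side, and DNAJB11, CRELD2, MANF, CREB3L1, HERPUD1, PDIA3 and SEL1L (-0.41 to -0.18) on the lower. Without labelled KOs 2D replicate C the values were 0.26 for OS9, -0.12 for DNAJB11, -0.13 for CRELD2, -0.14 for MANF, -0.16 for PDIA3 and -0.17 for SEL1L. HERPUD1 was -0.47 without labelled KOs 2D replicate B. Without labelled KOs 2D replicate A the values were -0.12 for HERPUD1, -0.25 for CREB3L1 and -0.12 for SEL1L. With library totals alone PDIA3 (0.03) and SEL1L (0.04) turned positive and were not called. DNAJB11, CRELD2, MANF, CREB3L1 and HERPUD1 (-0.18 to -0.08) were not called under that scaling either.

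Of the 37 members, 2 rose (ATF6B and OS9) and 10 fell (ATF6, CREB3L1, HSPA13, DNAJB11, SDF2L1, CALR, PDIA3, PDIA6, MANF and CRELD2) from 2D to 3D in wt, labelled KOs and KOd alike, comparisons that share no library. Among all tested genes, 16.2% rose and 15.9% fell in all 3. Without labelled KOs 2D replicate C, OS9, DNAJB11, PDIA3, MANF and CRELD2 left this list, and 1 higher and 6 lower members remained. Without replicate B or C of labelled KOs 3D, CREB3L1, DNAJB11, PDIA3, MANF and CRELD2 left it, and 2 and 5 remained. Scaling by library totals alone gave 3 higher and 5 lower, with CREB3L1, HSPA13, DNAJB11, PDIA3, MANF and CRELD2 no longer among them. The difference between labelled KOs and wt in this response was positive for 6 members and negative for 7, against 17.9% and 19.0% of all genes. With library totals alone it was 12 and 4, against 26.5% and 11.6% of all genes. Without the 3 libraries that stood apart it was 13 and 8, against 24.3% and 21.8% of all genes. HSP90B1 fell by 0.49 in wt and rose by 0.32 in labelled KOs, a difference of 0.81 ± 0.13 (adjusted p = 0.00015). SSR1 rose in wt (0.51) and fell in labelled KOs (-0.35), a difference of -0.86 ± 0.13, and XBP1 did likewise (0.36 and -0.51, difference -0.86 ± 0.15). ERO1A fell by 0.86 in wt and did not pass in labelled KOs (-0.02), a tested difference of 0.83 ± 0.12, and SYVN1 rose more in labelled KOs (0.66 ± 0.10). DNAJB9 differed by -1.06 ± 0.28, SEC61A1 by -0.65 ± 0.15, PDIA4 by 0.41 ± 0.12 and CANX by -0.38 ± 0.11. The difference of CANX was not called with library totals alone (-0.16). The differences of ERN1 (0.77), ATF6B (0.48), SEC61B (-0.37) and SIL1 (-0.34) were each lost on leaving out any of 3 to 6 single libraries, and that of SIL1 also without the 3 that stood apart (-0.23).

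Between pools and wt as tumorspheres, KOd 3D had 3 members higher and 15 lower, where 16.5% and 17.5% of all tested genes were. With library totals alone 5 were higher and 7 lower, against 25.7% and 11% of all genes. Without the 3 libraries that stood apart 4 were higher and 20 lower, against 21.9% and 23.4% of all genes. The member median was -0.22 against 0.00 over all genes. CREB3L1 was at 69.5, 63.3 and 91.7 CPM in wt 3D and 29.6, 26.8 and 26.1 CPM in KOd 3D, a difference of -1.44 ± 0.12 without overlap (adjusted p = 5.8e-08). ERN1 stayed higher (0.71 ± 0.18) and DNAJC3 was higher (0.43 ± 0.09). DNAJC10 (-0.81 ± 0.08), SEC24D (-0.76 ± 0.10), XBP1 (-0.65 ± 0.11), PDIA4 (-0.58 ± 0.09), SEL1L (-0.44 ± 0.08), CALR (-0.44 ± 0.11), HSP90B1 (-0.38 ± 0.09), ERO1A (-0.32 ± 0.08) and PDIA3 (-0.30 ± 0.07) were lower. With library totals alone HSP90B1 (-0.23), ERO1A (-0.17) and PDIA3 (-0.15) were not called. The calls of HSPA5 (-0.44), EIF2AK3 (-0.41), EDEM3 (-0.35), CREB3L2 (-0.30), SEC61B (-0.29) and EDEM1 (0.28) were each lost on leaving out any of 2 to 5 single libraries, among them wt 3D replicate B for the first 4. With the replicate letter as a block in these groups ATF6B was called too (0.26, adjusted p = 0.022, against 0.24 and 0.094). HERPUD1 (-0.10 ± 0.12) and DNAJB9 (-0.06 ± 0.19), which stood out in KOd 2D, did not pass.

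Labelled KOs 3D had 8 members higher and 13 lower than wt 3D, where 27.8% and 28.5% of all tested genes were. With library totals alone 13 were higher and 9 lower, against 37% and 21.7% of all genes. Without the 3 libraries that stood apart 12 were higher and 13 lower, against 33.5% and 31.4% of all genes. The member median was -0.11 against 0.02 over all genes. SSR1, a subunit of the translocon-associated complex, was at 417, 453 and 429 CPM in wt 3D and 189.9, 192 and 189 CPM in labelled KOs 3D, a difference of -1.19 ± 0.09 without overlap (adjusted p = 9.1e-09). DNAJB9 was at 13.8, 12.9 and 12.1 CPM against 29.6, 34.0 and 26.0 CPM, a difference of -1.21 ± 0.19. DNAJC10 (-0.91 ± 0.08), CREB3L1 (-0.87 ± 0.12), SEC24D (-0.80 ± 0.10), DNAJC3 (-0.80 ± 0.09), SEL1L (-0.78 ± 0.08) and HERPUD1 (-0.57 ± 0.12) were lower, as were EDEM3, CANX, XBP1, HSPA13 and ERO1A (-0.42 to -0.35). With library totals alone EDEM3 (-0.27), XBP1 (-0.22), HSPA13 (-0.2) and ERO1A (-0.19) were not called. SDF2L1 (0.75 ± 0.20), ERN1 (0.61 ± 0.18), MANF (0.50 ± 0.12) and EDEM1 (0.35 ± 0.09) were higher. The calls of CRELD2, DNAJB11, EDEM2 and HSP90B1 (0.23 to 0.39) were each lost on leaving out any of 3 to 5 single libraries, and that of HSP90B1 also with the replicate letter as a block (0.22, adjusted p = 0.055). Of the PERK arm genes, CEBPB (0.95 ± 0.12) and ATF3 (1.60 ± 0.23) were higher. So were DDIT3 (1.16 ± 0.21), PPP1R15A (0.51 ± 0.17) and TRIB3 (0.39 ± 0.11), and PPP1R15B (-0.41 ± 0.11) was lower, all named after their values were seen. The others did not pass.

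The 7 genes with the ER stress response element did not move as 1 group in KOd 2D against wt 2D. XBP1 (1.67) and HSPA5 (0.49) rose, HSP90B1 (-0.59), CALR (-0.49) and CRELD2 (-0.64) fell, and CANX (0.01) and ERO1B (-0.42) did not pass. Of the ERSE-II genes, HERPUD1 rose (1.74) and SDF2L1 (-0.21) did not pass. ERN1 and DNAJB9, the members with the largest rises there, carried none of the 3 motifs in the searched window.

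Beyond the members, 127 other genes of the pathway were followed in 6 lists, of which 125 were tested (DERL3 and ERN2 were not). In KOd 2D against wt 2D, 26 (20.8%) were higher and 43 (34.4%) lower, where 22.1% and 22.5% of all tested genes were. Scaled by library totals alone, 34 were higher and 32 lower, against 27.5% and 17.4% of all genes. Of 32 other folding enzymes and chaperones 7 were higher and 13 lower, of 25 translocon, signal peptidase and glycosylation genes 2 and 12, of 20 COPII export genes 2 and 11, and of 28 degradation genes 7 (25%) and 4 (14.3%). The lower degradation genes include VCP, the ATPase that pulls proteins out of the ER membrane (-0.90 ± 0.11, adjusted p = 2.7e-06 in edgeR). In KOd 3D against KOd 2D, 21 of the 125 (16.8%) rose and 53 (42.4%) fell, with HYOU1, a large HSP70 relative that acts with BiP, at -1.21 ± 0.10. The shares of all tested genes there were 35.2% and 31.2%. In wt 3D against wt 2D, 26 (20.8%) rose and 41 (32.8%) fell, where 33.3% and 30.4% of all genes did. With the medium alone 15 (12%) rose and 23 (18.4%) fell, near the shares of all genes (15.6% and 16.4%). Without the 3 libraries that stood apart 28 rose and 35 fell, against 24.5% and 24.8% of all genes. In labelled KOs 3D against 2D, 22 (17.6%) rose and 67 (53.6%) fell, where 32.9% and 32.1% of all genes did. Under library totals alone 35 rose and 46 fell, against 41.4% and 21.8% of all genes. In labelled KOs 2D against wt 2D, 48 (38.4%) were higher and 40 (32%) lower, where 27.7% and 25.5% of all genes were, and of the 28 degradation genes 16 (57.1%) were higher.

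Among the larger overlaps, some members share exonic bases with other genes in the GENCODE annotation, so part of their counts could belong to those genes depending on how reads were counted. ATP6V1C2 covers 25.2% of the exonic bases of PDIA6 on the opposite strand, ELL3 14.8% of PDIA3, an antisense RNA 14.4% of EIF2AK3 and another 13.5% of OS9. FAU shares 7.24% of SYVN1 and AL662884.2 shares 7.96% of ATF6B on the same strand, and THAP5 covers 6.45% of DNAJB9 on the opposite strand. The strand setting used for counting is not given in the sources used here.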

How the data were processed

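mRNA libraries (TruSeq stranded) of 20 SUM159PT samples were sequenced by the authors, who deposited a table of raw counts per gene identifier, per the labels and the file itself. STAR and build hg38 are named in the submitters' processing notes; the counting tool, its strand setting and its annotation are not given in the sources used here. Of 27864 identifiers, 27740 had a symbol. Counts were fitted as deposited with edgeR 4.0.16 (R 4.3.3, limma 3.58.1): low genes were removed with filterByExpr, leaving 16323, libraries were scaled by TMM, and all 20 libraries entered 1 quasi-likelihood model that has a coefficient for each group (13 residual degrees of freedom). P-values of 11 contrasts were Benjamini-Hochberg adjusted over 16323 genes and called under 0.05. The standard error is the log2 fold change divided by the square root of the F statistic. CPM are TMM-scaled, and RPKM also divide by exon length. Totals of 26396964 to 43744817 counts limit the precision of low genes.

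All 37 members are accounted for by role, with values where a member passed. From each pathway list at most the 2 genes with the smallest adjusted p per contrast are named, and others are marked as named after their values were seen. The members and lists were chosen with earlier results of these data known. Replicate letters were checked as pairs: of 57 same-letter pairs, 4 had a correlation of deviations over 0.1 (median 0.00069), and only wt 3D and KOd 3D had all 3 over it. The reported values use no pairing, also between wt 3D and KOd 3D. A block by letter was fitted there only as an alternative. Alternatives were other scalings, filters, limma-voom, a replicate block, DESeq2 1.42.0, a fit of only the groups compared, ribosomal RNA genes left out, each library left out, and, added after seeing the data, the 3 libraries that stood apart left out and a block within wt 3D and KOd 3D. On simulated data with known changes, KOd against wt 2D (15583 genes) recovered 22.4%, 97% and 100% of genes changed by 0.5, 1 and 2 log2, and 2.67% of its calls were false. For wt 3D against 2D (15612 genes) the shares were 22.4%, 98.5% and 100%, with 8.12% false, and for the KOd interaction (15606 genes) 7.46%, 68.7% and 100%, with 7.14% false. The simulation gave all genes the same spread, changed few genes and had no library standing apart. Its shares therefore check the procedure and do not describe the calls reported here.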

Additional observations from a re-analysis of the deposited data

Results flagged for a closer look

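The change from 2D to 3D differed between a pool and wt for 24 gene and pool combinations, by the interaction contrast in edgeR's quasi-likelihood test (adjusted p under 0.05 over all tested genes). All values are the pool's log2 change minus that of wt, whose libraries both pools share. In KOd, the difference was -2.32 for XBP1, -2.16 for ERN1, -2.05 for DNAJB9, -1.84 for HERPUD1, -1.11 for HSPA13 and -0.93 for HSPA5. It was -0.88 for CREB3L1, -0.75 for SEL1L, -0.63 for SYVN1 and -0.49 for ATF6, and 0.57 for ERO1A.

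In labelled KOs the positive differences were 0.83 for ERO1A, 0.81 for HSP90B1, 0.77 for ERN1, 0.66 for SYVN1, 0.48 for ATF6B and 0.41 for PDIA4. The negative ones were -1.06 for DNAJB9, -0.86 for both XBP1 and SSR1, -0.65 for SEC61A1, -0.38 for CANX, -0.37 for SEC61B and -0.34 for SIL1. The labelled KOs libraries were the deepest and had the lowest share of ribosomal RNA counts, and the part of this in the differences was not tested.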

How the results depend on the processing

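Of 224 calls of members over 11 comparisons, 160 held in every alternative, 64 were lost in at least 1, and 2 reversed. With library totals alone, which shifted the median of all genes by 0.22 in labelled KOs 3D against 2D, PDIA3 (0.03) and SEL1L (0.04) turned positive there. Fitting the compared groups alone called 17 members in that comparison instead of 26, and 6 members one way in all 3 cultures instead of 12, with fewer samples behind the spread. Without the 3 libraries that stood apart, the interaction was called for 21 members in labelled KOs instead of 13 and for 18 in KOd instead of 11. Calls over all tested genes rose too, from 17.9% and 19.0% to 24.3% and 21.8% in labelled KOs (higher and lower). In KOd they rose from 14.4% and 14.7% to 20.7% and 21.3%. The cause was not tested.

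Leaving out 1 library at a time called 13 to 22 members for the medium alone, 22 to 23 for wt 3D against 2D, 19 to 24 for labelled KOs and 24 to 27 for KOd. It called 12 to 18 for wt 3D against wt in 3D medium, 18 to 24 and 24 to 25 for labelled KOs and KOd against wt in 2D, and 18 to 19 and 14 to 18 in 3D. For the interaction it called 10 to 16 in labelled KOs and 11 to 12 in KOd. The members called one way in all 3 cultures numbered 7 to 13. With a replicate block (the letter as a term for all libraries), EDEM3 lost its call with the medium alone (0.28, adjusted p = 0.052 in edgeR), XBP1 gained one in wt 3D against wt in 3D medium (-0.31), and HSP90B1 lost its call in labelled KOs 3D against wt 3D (0.22). The block within wt 3D and KOd 3D called 19 members instead of 18, and no other call changed under either block.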
